A study of Mus musculus with 2 samples.

Results

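The cytoplasmic ribosomal proteins were examined in mouse cardiomyocytes (MCMs) in which *Ppp2r5d*, a regulatory B56 subunit of protein phosphatase 2A, was knocked down by siRNA. Members were chosen by name alone: a non-control probe counted if its gene name was Rpl or Rps followed by a number and an optional a, x or l, or was *Rpsa*, *Rplp0*, *Rplp1* or *Rplp2*, and the S6 kinases and pseudogene names were left out. This gave 81 genes out of 37074 gene names on the array, covered by 176 probes and 752 spots. Among them, 30 encode proteins of the small (40S) subunit, 43 of the large (60S) subunit, 3 the P-stalk, and 5 are paralogs of other members. RNA came from 1 culture transfected with siRNA-NC, the negative control, and 1 transfected with siRNA-*Ppp2r5d*, both kept in DMEM with low serum, moved to glucose-free medium at 48 h and collected 64 h after transfection. Each was hybridized to 1 one-colour array, so both cultures shared the transfection reagent and the glucose withdrawal, and no untransfected or glucose-fed culture was compared. With 1 array per group there is no spread between cultures, no test and no p-value, and each difference below is one between a pair of arrays. RNA per cell and the number of cells cannot be told apart in such samples.

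A ribosome is built from ribosomal RNA and a fixed set of proteins, of which the 40S subunit reads the message and the 60S subunit joins amino acids. The mRNAs for these proteins are among the most abundant in a growing cell, and they begin with a run of pyrimidines, the 5′ terminal oligopyrimidine (TOP) tract, through which mTOR signalling controls how much they are translated. Because the proteins are needed in equal numbers, their mRNAs usually move together. Faulty assembly is sensed through free Rpl5 and Rpl11 protein, which bind Mdm2 and release p53.

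*Ppp2r5d* itself read 4701 with siRNA-NC and 676 with siRNA-*Ppp2r5d*, 6.08-fold lower after scaling (log2 fold change −2.61). Of 14 cardiomyocyte markers on the list, 8 were above background with siRNA-NC and 10 with siRNA-*Ppp2r5d*, among them *Actc1* (6443 and 5268), *Tnnt2* (858 and 1006), *Ttn* (1109 and 1520) and *Nkx2-5* (1078 and 1001). *Myl2*, *Myl7*, *Pln* and *Actn2* were not well above background on either array. Of the fibroblast markers 6 of 7 were above background on each array, and the smooth muscle markers all 4. Probe intensity for *Col1a2* was 147500 and 134500, and for *Acta2* 133400 and 115500, with siRNA-NC and siRNA-*Ppp2r5d* respectively. Of 4 endothelial markers 1 and 2 were above background, and of 4 leukocyte markers 3 on each array. The intensities of the markers of a type, summed, were 9690 and 9027 for cardiomyocytes, 302400 and 282500 for fibroblasts, 141900 and 129700 for smooth muscle, 76.0 and 69.6 for endothelium and 2318 and 1693 for leukocytes. These sums are of unscaled intensities. The cardiomyocyte sum followed *Actc1*, the smooth muscle sum *Acta2*, and the fibroblast sum *Col1a1*, *Col1a2* and *Col3a1*. After scaling, the log2 fold changes of *Actc1* (−0.098) and *Tnni3* (−0.19) were below 0. Those of *Tnnt2* (0.42), *Ttn* (0.89), *Myl3* (0.91), *Nppa* (0.62), *Nkx2-5* (0.086) and *Myh7* (0.024) were above 0. Of these, *Myl3* (40.4 and 66.2), *Nppa* (16.6 and 22.4), *Myh7* (48.15 and 42.8) and *Tnni3* (54.1 and 46.0) read low on both arrays. Among the markers of all types *Cnn1* differed most, from 288 to 1341 (2.41). Of the other smooth muscle markers, *Tagln* (0.85) was above 0, and *Acta2* (−0.020) and the dim *Myh11* (−0.38) were below. Of the fibroblast markers, *Pdgfra* (0.625) and *Postn* (0.12) were above 0. *Col1a1* (−0.13), *Col1a2* (−0.31), *Col3a1* (−0.049) and *Dcn* (−0.14) were below. The leukocyte markers *Ptprc*, *Csf1r* and *Cd68* stood at 0.13, −0.064 and −0.77, and the endothelial *Pecam1* at −0.23. Whether a shift in cell makeup had a part in the ribosomal protein values was not tested. No spot was saturated.

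The signal of 77 of the 81 genes was well above background with siRNA-NC and with siRNA-*Ppp2r5d*, through 168 of the 176 probes. Before any scaling their intensities were nearly the same in both cultures. The median unscaled ratio of siRNA-*Ppp2r5d* to siRNA-NC was 0.996, with 34 genes above 1 and 43 below, and the quartiles of the log2 ratio were −0.046 and 0.019. The arrays differed instead in their 75th percentile of intensity, 593 for siRNA-NC and 519 for siRNA-*Ppp2r5d*, a step of 0.19 on the log2 scale. After each array was scaled to that percentile, the 77 genes had a median log2 fold change of 0.19 (quartiles 0.15 and 0.21, SD 0.077 over genes), and 75 of 77 were above 0. Over all 20350 genes measured on both arrays, 54.2% were above 0 and the median was 0.026. None of the 77 genes reached 1.5-fold in either direction, against 8.0% of all genes, and none reached 2-fold, against 1.96%. The median after scaling thus equalled the scaling step to within rounding.

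**Figure D1:**
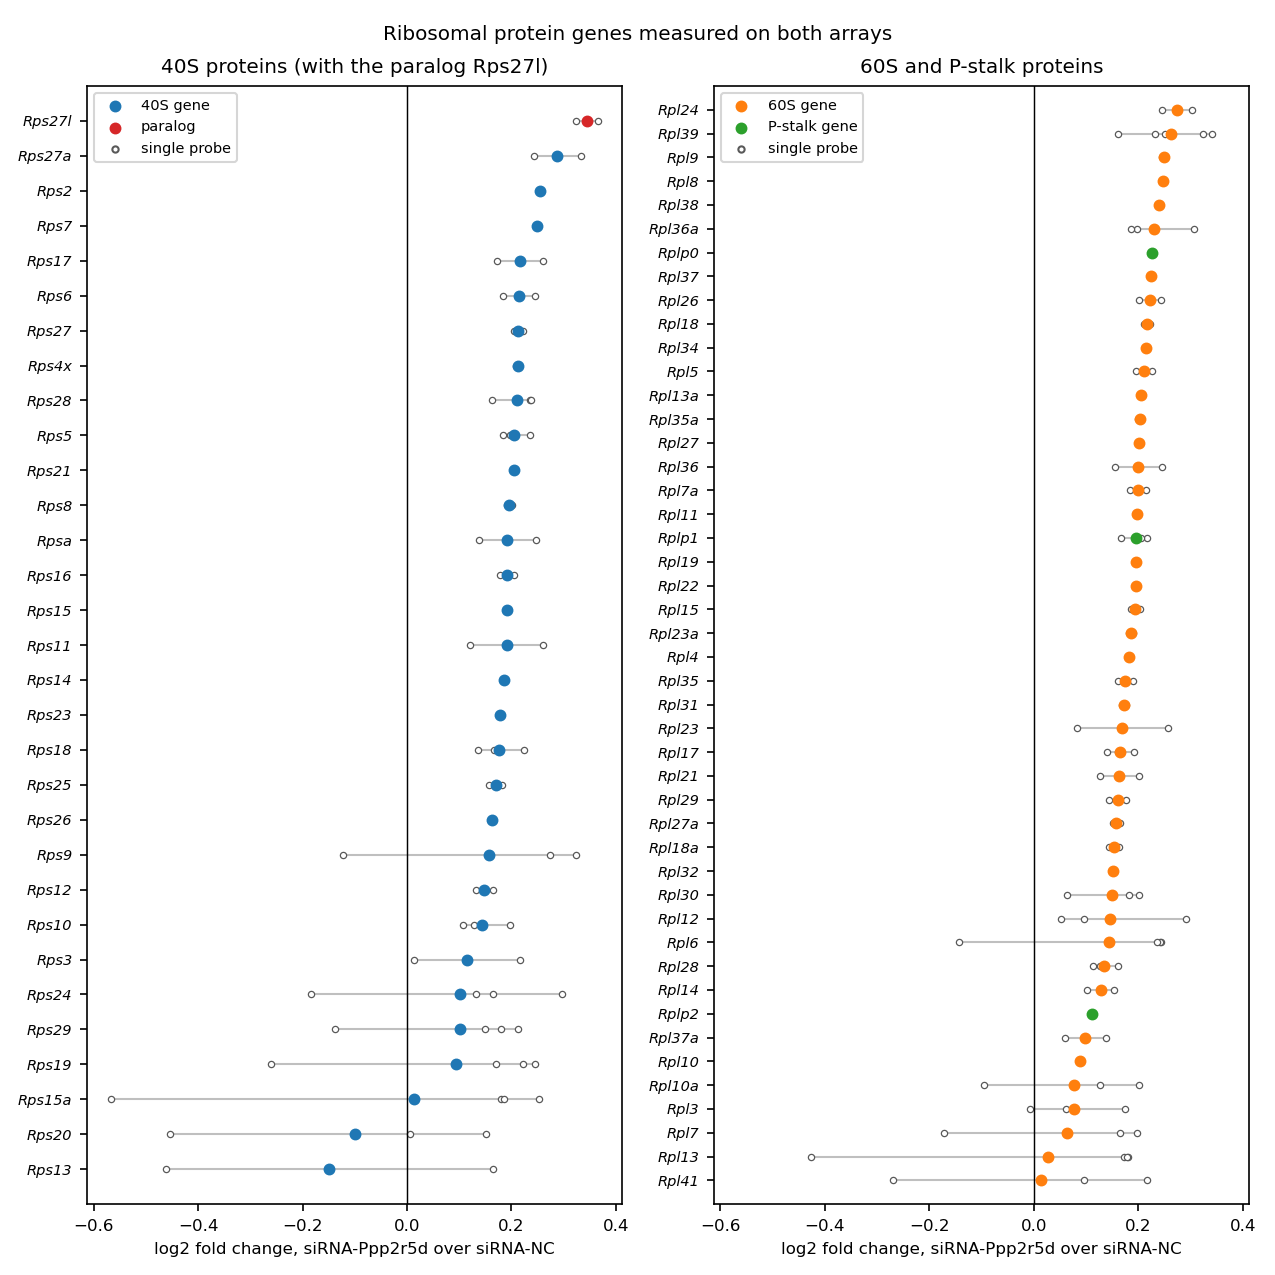
Log2 fold change (siRNA-*Ppp2r5d* over siRNA-NC, 75th-percentile scaling) of the 77 measured ribosomal protein genes, 1 row a gene. Filled points are gene means, open points single probes and grey lines their range; most genes lie near 0.19, and the 5 at or below 0.026 each have a probe far to the left.

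The 40S genes had a median log2 fold change of 0.19 (n = 30, quartiles 0.15 and 0.21) and the 60S genes of 0.18 (n = 43, quartiles 0.15 and 0.21), so the subunits lay within each other's spread. *Rps6*, the protein that S6 kinase phosphorylates, read 72130 with siRNA-NC and 73229 with siRNA-*Ppp2r5d*, a log2 fold change of 0.21. *Rpsa*, which sits at the mRNA exit and is also known as a laminin receptor, read 102851 and 102778 (0.19). *Rps3*, a 40S protein with a KH domain at the mRNA entry, read 89501 and 84773 (0.11). The unscaled intensities of *Rps6* and *Rpsa* were thus all but equal between the cultures. For *Rps3* the probes disagreed: one with 10 spots gave 0.22 ± 0.054 (SD over spots), and another, designed to a cDNA record, gave 0.013. *Rps25*, used for internal initiation, read 29093 and 28641 (0.17). *Rps14* read 155875 and 155222 (0.19) and *Rps19* 14117 and 13181 (0.094), and both are best known from bone marrow disorders caused by loss of a single copy. The lower *Rps19* value came from 1 of its 4 probes, and the other three gave 0.17, 0.22 and 0.25.

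Among the 60S genes, *Rpl5* read 48192 and 48830 (log2 fold change 0.21) and *Rpl11* 118678 and 119079 (0.20). Both Mdm2-binding proteins thus stood close to the median of the group. *Rpl26*, which is placed beside the exit tunnel and also binds p53 mRNA, read 58246 and 59427 (0.22), and *Rpl23*, another Mdm2-binding protein, read 82196 and 80905 (0.17). *Rpl22*, which lies on the outside of the 60S subunit, read 42970 and 43039 (0.20). Both of the proteins most often tied to translation of particular mRNAs in development, *Rpl38* and *Rpl10a*, were measured. *Rpl38* read 98776 and 102015 (0.24), and *Rpl10a* 37323 and 34467 (0.078), its mean holding a dim probe at −0.095 beside others at 0.13 and 0.20. *Rpl13a*, which can leave the ribosome to silence inflammatory mRNAs, read 39353 and 39723 (0.21). *Rpl10*, which completes the peptidyl transferase centre, had a single probe, 205928 and 191537, and at 0.088 lay in the lower part of the group. Of the P-stalk, which recruits elongation factors, *Rplp0* read 91372 and 93473 (0.23), *Rplp1* 118874 and 119202 (0.20), and *Rplp2*, below the lower quartile of the members, 155375 and 146960 (0.11).

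The highest 5 values belonged to *Rps27l* (0.34), *Rps27a* (0.29), *Rpl24* (0.28), *Rpl39* (0.26) and *Rps2* (0.25). *Rps27a*, made as a fusion with ubiquitin, rested on a bright probe, 143196 and 148228 (0.24), and on one near background, 43.6 and 48.05 (0.33). *Rpl24* had probes at 0.30 and, with 10 spots, at 0.25 ± 0.032 (SD over spots). *Rpl39*, in the exit tunnel, had 5 probes between 0.16 and 0.34. *Rps2* gave 0.25 on both of its measured probes, and each shared a run of 25 bases with a probe of another gene name. The array's coordinates place these probes apart on chromosome 17, at 24857583 and 42864841. Each of these 5 lay well short of 1.5-fold.

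*Rps27l* was the only paralog among the 5 that was well above background. It is a p53 target whose protein differs from that of *Rps27* by few residues, and its mRNA is therefore read apart from that of *Rps27* only by probes that tell the sequences apart. Its probes are shown since they carry the highest value of the group, and neither shares a run of 25 bases with a probe of any other gene name. In build mm9 the first spans chr9:66793986-66794695 and the second chr9:66795486-66797176, both on the plus strand and each crossing a splice junction. The letters are in lower case throughout.
Rps27l probe 1: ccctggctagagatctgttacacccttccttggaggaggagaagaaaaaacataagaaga
Rps27l probe 2: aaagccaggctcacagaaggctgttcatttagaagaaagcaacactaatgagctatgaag
The first read 13037 with siRNA-NC and 14694 with siRNA-*Ppp2r5d* (log2 fold change 0.37), and the second 28500 and 31214 (0.32). Both were higher in the knockdown even before scaling. *Rps27* itself gave 0.20 ± 0.038 and 0.22 ± 0.056 (SD over 9 and 10 spots) on its probes. The paralog exceeded its partner by 0.13 on the log2 scale, a distance that no constant shift of an array alters. The array's coordinates place both *Rps27* probes on chromosome 9, while the gene lies on chromosome 3. In this difference, signal from a near-identical copy therefore cannot be told apart from that of *Rps27*. Other p53-related genes on the lists did not share one value. *Cdkn1a*, the p53 target that halts the cell cycle, had a mean of 0.31, but its 3 probes ran from −0.19 to 0.91. *Mdm2* stood at 0.20, over probes from 0.093 to 0.30, and *Trp53* at 0.15. These genes were dim, at 671 (*Cdkn1a*), 3240 (*Mdm2*) and 864 (*Trp53*) with siRNA-NC, so the median of the ribosomal proteins is of unlike brightness. Relative to genes of like brightness, binned as described below, *Cdkn1a* stood at 0.31, *Mdm2* at 0.13, *Trp53* at 0.15 and *Rps27l* at 0.17.

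The other paralogs, *Rpl3l*, *Rpl10l*, *Rpl39l* and *Rps4l*, were each represented by 1 probe, and none was well above background on either array. *Rpl3l*, which replaces *Rpl3* in adult striated muscle, read 3.03 with siRNA-NC and 2.74 with siRNA-*Ppp2r5d*. *Rpl10l* and *Rpl39l*, known from the testis, read 7.19 and 3.87, and 7.13 and 2.73. *Rps4l* read 3.04 and 2.73. Their partners were all bright: *Rpl3* read 58335.5 and 53821 (0.077), *Rpl39* 48263 and 50638, and *Rps4x* 46872 and 47508 (0.21). Paralogs whose names fall outside the rule were measured, with *Rpl22l1* at 0.13 and *Rpl36al* at 0.20 beside *Rpl36a* at 0.23. *Rpl7l1* stood at 0.0093 beside *Rpl7* at 0.063. The mean of *Rpl7* held a dim probe at −0.17 beside others at 0.16 and 0.20.

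Repeated spots gave the technical error. For 64 of the probes 6 to 10 spots were kept, and the SD of the log2 fold change over the spots of 1 probe had a median of 0.038 (range 0.019 to 0.070). For different probes of 1 gene the range was taken, which is larger than an SD of the same values would be. In the 58 genes with several measured probes the median range between probes was 0.067, and in 45 of them all probes were above 0. *Rpl27* and *Rps2* had probes that gave almost the same value, while the probes of *Rps15a* were spread most widely, over 0.82. The spots cover the error within an array and not the difference between cultures.

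The lowest 5 values were those of *Rps13* (−0.15), *Rps20* (−0.099), *Rps15a* (0.013), *Rpl41* (0.015) and *Rpl13* (0.026), and each mean held a dim probe far below the others. A limit of 10000 for the intensity with siRNA-NC was chosen after the values were seen. Of the 168 measured probes 147 were at or above it, with a median log2 fold change of 0.19 and 146 of 147 above 0. The other 21 had a median of −0.12, and 12 of 21 were below 0. Probes of other genes had a median of 0.13 above the limit (n = 2980) and of 0.0026 between intensities of 40 and 10000 (n = 24416).

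The same split could be made within a gene. In 17 ribosomal protein genes both kinds of probe were measured, and the dim ones were lower in 15, with a median difference of −0.31 on the log2 scale. In all 17 the dim probes were at least 10-fold dimmer on average. Among other genes with both kinds of probe and a gap of at least 10-fold, the dim ones were lower in 534 of 839 (63.7%), by a median of −0.062. The gap was not matched beyond this minimum, and in *Rps13* the probes read 479 and 89474 with siRNA-NC. The exceptions among the members were *Rpl9* and *Rps27a*. No test bears on this difference between members and other genes.

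**Figure D2:**
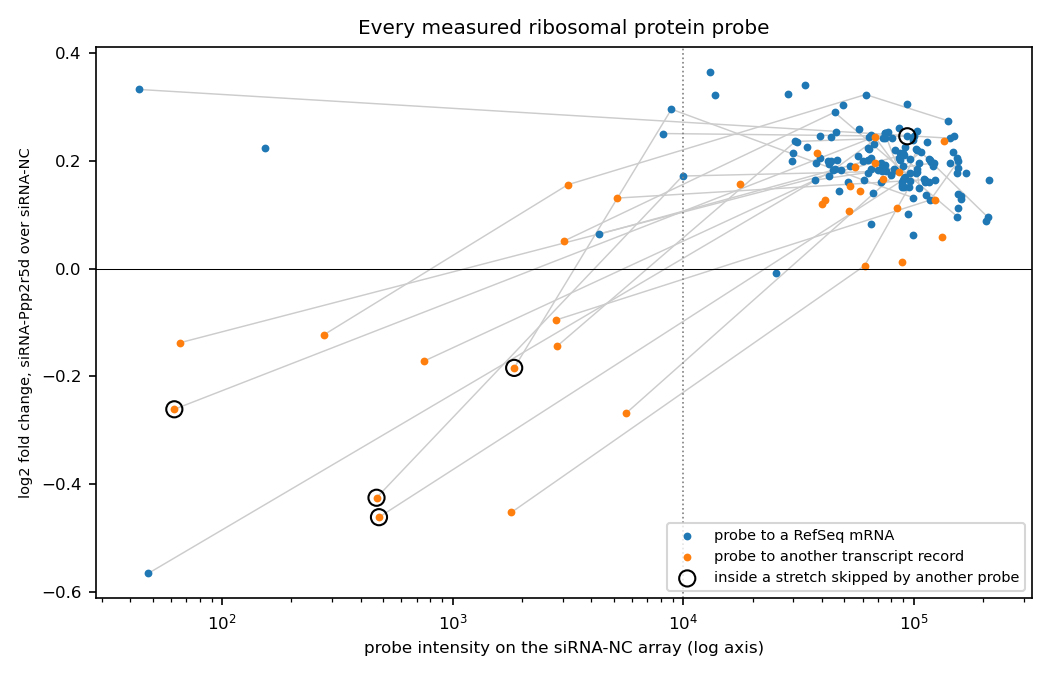
Log2 fold change against the intensity with siRNA-NC (log axis) for the 168 measured ribosomal protein probes, coloured by the transcript record the probe was designed to. Grey lines join probes of 1 gene that has probes on both sides of an intensity of 10000 (dotted), and circles mark the 5 probes that lie inside a stretch skipped by another probe of the gene; 4 of these 5 are dim and below 0.

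Most of the low probes were designed to transcript records other than the RefSeq mRNA. Of the 13 measured probes below 0, 11 were of that kind and 2 were designed to a RefSeq mRNA. Probes to a RefSeq mRNA had a median of 0.20 (n = 136) and the others of 0.11 (n = 32). The array's coordinates add to this for some genes. A probe of 60 bases that crosses a splice junction covers a longer stretch of the genome, and 5 probes lay wholly inside such a stretch while sharing no run of 12 bases with the probe that skips it. Such a stretch may hold introns and, where it crosses several junctions, further exons. Of these 5, those of *Rps13*, *Rpl13*, *Rps19* and *Rps24* were dim and low (−0.46, −0.43, −0.26 and −0.18), and the bright one of *Rpsa* was at 0.25. The pairs for *Rps13* and *Rpl13* are printed because they set the gene's place at the bottom of the order. In mm9 the spliced *Rps13* probe spans chr7:123475080-123475934 and the probe inside it lies at chr7:123475113-123475172, both on the minus strand. The spliced *Rpl13* probe spans chr8:125627816-125628964 and the inner one lies at chr8:125628690-125628749, on the plus strand.
Rps13, spliced: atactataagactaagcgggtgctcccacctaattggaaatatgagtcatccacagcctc
Rps13, inside the skipped stretch: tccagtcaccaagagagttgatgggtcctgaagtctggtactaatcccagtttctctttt
Rpl13, spliced: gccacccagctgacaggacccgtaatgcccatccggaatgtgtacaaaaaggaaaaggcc
Rpl13, inside the skipped stretch: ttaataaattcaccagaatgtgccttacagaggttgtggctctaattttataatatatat
For *Rps13*, a 40S protein that contacts the 60S subunit, the spliced probe read 89474 and 87740 (0.16) and the inner probe 479 and 304 (−0.46). For *Rpl13* the spliced probe read 75557 and 74943 (0.18) and the inner probe 468 and 305 (−0.43). In both genes the probe of the joined exons was above 0 and the inner probe was lower in the knockdown by about the same amount. The *Rps19* inner probe read 62.1 and 45.3 beside a spliced probe at 91270 and 89829, and the *Rps24* inner probe 1849 and 1424 beside 99433 and 95344. These were 4 single spots on each array, with no repeat.

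The remaining low genes had a like split. *Rps20* read 1798 and 1149 (−0.45) on its dim probe, and gave 0.0056 and 0.15 on bright ones. *Rps15a* read 47.9 and 28.3 (−0.57) on a probe to its RefSeq mRNA, while its others gave 0.18 to 0.25. *Rpl41*, the smallest ribosomal protein, read 5646 and 4101 (−0.27) on its dim probe, and gave 0.096 and 0.22 on the others. Where each gene was taken from its probe of highest signal alone, all 77 were above 0 and the range narrowed to 0.062 to 0.32. *Rpl37* was measured by 1 probe, which read only 153 and 156 (0.22).

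The name of a probe is not proof of its target. Of the 168 measured probes 50, in 40 genes, shared a run of 25 or more bases with a probe of another gene name, often that of a processed copy. In 10 genes all measured probes did so. Without these probes 67 genes were left, with a median of 0.18. In addition 7 probes of *Rps27*, *Rps29*, *Rpl13* and *Rpl36* were placed by the array's coordinates on a chromosome other than that of the gene in the RefSeq table, and their values ran from 0.15 to 0.25, close to the group. For genes of this kind signal from a near-identical copy cannot be told apart from that of the gene.

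The value of the group was set beside that of other genes with probes of like brightness. All 20350 measured genes were put in order of mean intensity and cut into 20 bins of equal size. The median log2 fold change was 0.013 in the dimmest bin, −0.051 in the sixth, 0.020 in the fourteenth, and reached 0.12 in the bin below the brightest and 0.18 in the brightest, which began at an intensity of 19890. Of the 77 ribosomal protein genes 66 were in the brightest bin and 74 in the 2 brightest. In the brightest bin the 66 had a median of 0.19 (quartiles 0.16 and 0.21), and the 952 other genes 0.17 (quartiles 0.10 and 0.22). The SD over genes was 0.051 for the members and 0.13 for the others, and 66 of 66 members and 89.6% of the others were above 0. The bin runs up to an intensity of 229200. Neither the place within it nor the number of probes and spots averaged per gene was matched. Relative to the median of its own bin a ribosomal protein gene stood at 0.016 (median, quartiles −0.026 and 0.037), and 70 of 77 lay within 0.1 of it. The members farthest above their bins were *Rpl37* (0.27), *Rps27a* (0.24) and *Rps27l* (0.17), and those farthest below were *Rps13* (−0.23), *Rps20* (−0.22) and *Rpl41* (−0.16). The means of *Rps27a* and *Rps13* each average a bright and a dim probe, so their bins have the brightness of neither. The bright *Rps27a* probe gave 0.24, beside the median of 0.18 in the brightest bin. *Rpl37* rests on 1 probe, in the seventh bin.

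**Figure D3:**
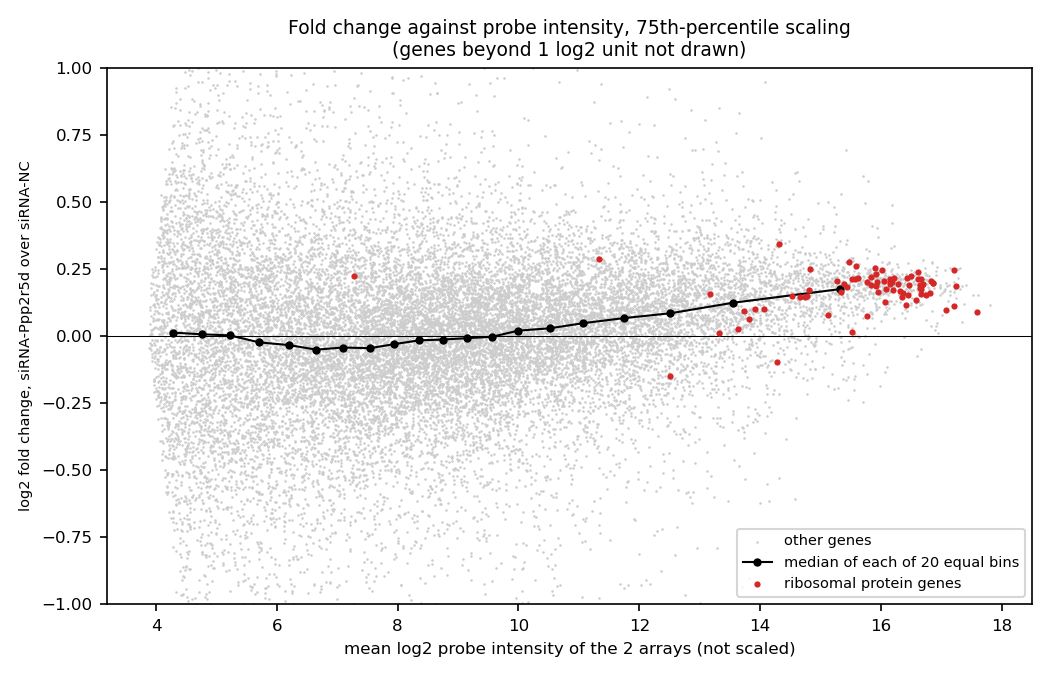
Log2 fold change (75th-percentile scaling) against the unscaled mean log2 intensity of the 2 arrays for all measured genes. The black line joins the medians of 20 equal bins and climbs to 0.18 in the brightest bin, where 66 of the 77 ribosomal protein genes (red) sit close to it.

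Scaling decided on which side of 0 the group fell. Quantile normalization brought the median of the members to 0.026, with 52 of 77 above 0, and cyclic loess to 0.017, with 50 above 0. The authors' own log2 values gave 0.027, with 53 above 0. Spike-in probes read RNAs added in known amount to each labelling. Scaled to the median of their signals, the members had a median of −0.029, with 15 above 0, and all genes a median of −0.19. Scaled by the median ratio of the 8 spike-in probes well above background, whose ratios ran from −0.039 to 0.056 on the log2 scale before scaling, the members had a median of 0.0041, with 41 above 0, and all genes one of −0.16. Both of these constant shifts moved members and all genes alike, and the distance between their medians stayed at 0.16. Under quantile normalization and cyclic loess, which remove a trend with brightness, the distance was 0.012 and 0.013. No gene of the 77 passed 1.5-fold under any of these scalings.

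**Figure D4:**
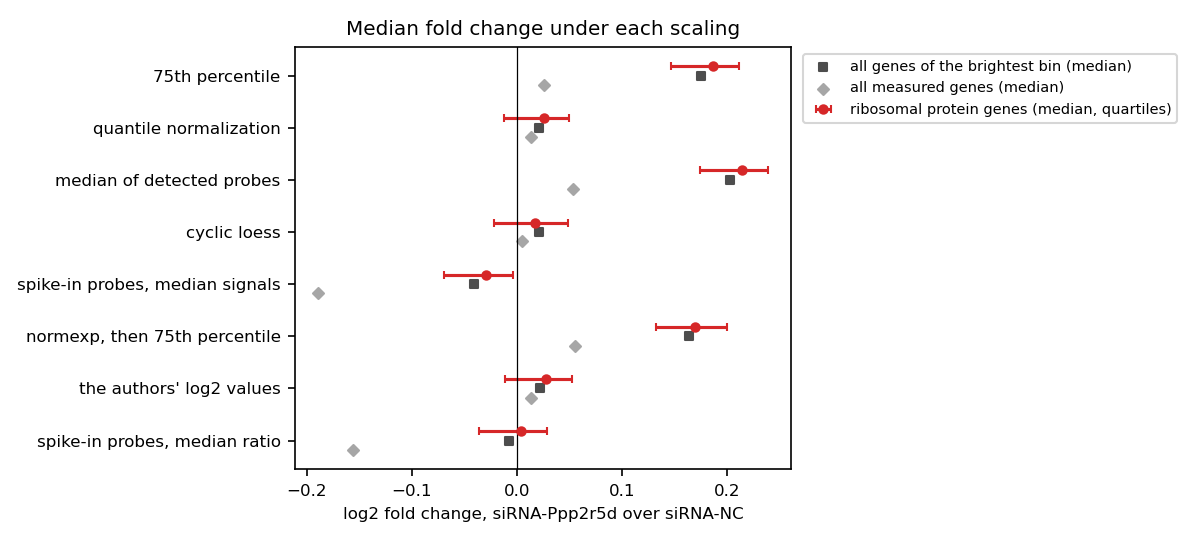
Median log2 fold change of the 77 ribosomal protein genes (red, bars from the lower to the upper quartile), of all genes of the brightest bin (squares) and of all measured genes (diamonds) under 8 scalings. The members stay with the brightest bin under every scaling drawn and have medians between −0.029 and 0.21.

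Genes that make or accompany ribosomes were set beside the members as lists, each described by its counts and median. The 7 ribosomal proteins whose names escape the rule had a median of 0.13, all above 0, from *Rpl7l1* (0.0093) to *Rps3a1* (0.21). *Gnb2l1*, the scaffold RACK1, stood at 0.16. Of 26 further genes whose mRNAs carry a TOP tract, 24 were above 0, with a median of 0.16. The highest was *Pabpc1*, the poly(A)-binding protein, at 0.56 over probes at 0.22 and 0.90, and the lowest *Snhg1*, a snoRNA host gene, at −0.0026. The elongation factors *Eef1a1* (0.24) and *Eef2* (0.21) were near the ribosomal proteins.

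Of 74 ribosome assembly factors 58 were above 0, with a median of 0.10, and their SD over genes was 0.14, against 0.077 for the ribosomal proteins. Genes other than the ribosomal proteins had an SD of 0.29 in the fifteenth bin of brightness and 0.13 in the brightest. Nearly all assembly factors were dimmer than the brightest bin. *Ddx21*, a nucleolar helicase, was highest, 4057 with siRNA-NC and 5297 with siRNA-*Ppp2r5d* (0.58), just short of 1.5-fold. *Nop14*, of the small-subunit processome, was lowest, 993 and 697 (−0.32). *Npm1* (0.30), *Fbl* (0.26) and *Ncl* (0.21), abundant nucleolar proteins, stood between. The 15 genes of the RNA polymerase I machinery, which transcribes ribosomal RNA, had a median of 0.15 with 11 above 0, from *Polr1a*, its largest subunit (−0.27 over probes at −0.68 and 0.14), to *Polr1d* (0.41).

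The mitochondrial ribosomal proteins, built into a separate ribosome, had a median of 0.079, with 54 of 76 above 0. They ran from *Mrpl42*, 15280 and 9697 (−0.46), to *Mrpl50*, 963 and 1178 (0.48), and their SD over genes was 0.16. The 34 proteasome subunits, another large complex of fixed makeup, had a median of 0.055, with 25 above 0, between *Psmd3* (−0.20) and *Psmd8* (0.37). Of 28 regulators of ribosomal protein synthesis and sensors of their loss 17 were above 0, with a median of 0.046. *Mlst8*, an mTOR partner, was lowest at −0.25, *Mtor* stood at 0.23, *Larp1*, which binds TOP tracts, at 0.021, and *Myc* at −0.050. Relative to the bins of equal brightness, where the ribosomal proteins stood at 0.016, the medians were 0.11 for the polymerase I genes, 0.078 for the assembly factors, 0.018 for the regulators, −0.0065 for the TOP genes, −0.0077 for the mitochondrial ribosomal proteins, −0.013 for the ribosomal proteins outside the rule and −0.051 for the proteasome. No gene of any of these lists passed 1.5-fold under the 75th-percentile scaling. Of the genes named here *Ddx21* (0.60) and *Pabpc1* (0.59) did so when the arrays were scaled to the median of detected probes, and *Mrpl42* did so under both spike-in scalings (−0.68 and −0.65).

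**Figure D5:**
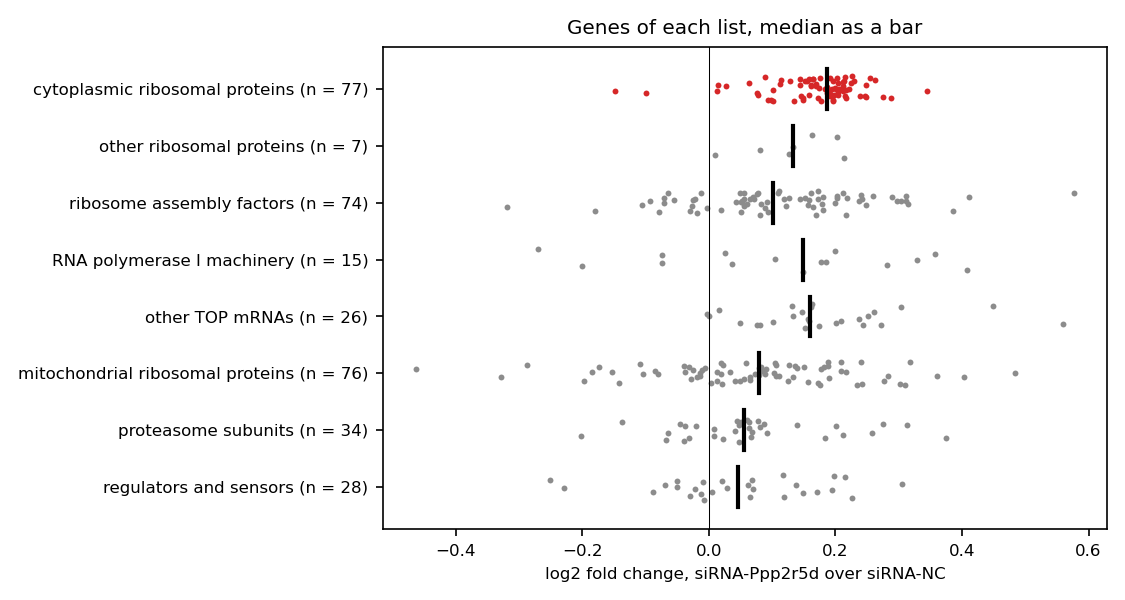
Log2 fold change (75th-percentile scaling) of each measured gene of the ribosomal proteins (red) and the comparison lists (grey), with the median of each as a bar and a random vertical offset for legibility. The ribosomal proteins gather around 0.19, and no point reaches 1.5-fold. Their SD is 0.077, beside 0.071 for the 7 ribosomal proteins outside the rule and 0.12 to 0.20 for the longer lists. The lists differ in brightness.

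Sequence around the start sites was read for the members to show what they share beside the name. RefSeq promoter windows of 300 bases (build GRCm38.p6, 250 before and 50 after the annotated start) were found for 60 of the 81 genes, as 72 windows. An unbroken run of 8 or more C or T on the gene's strand, within 10 bases of the start on either side, was present in 20 of 72 windows (27.8%), against 7.43% of all 32851 windows and 6.67% of the 75 windows of mitochondrial ribosomal proteins. Runs of A or G of the same length were in 2.78% of the members' windows and 8.45% of all. The letters CCGGAAG, on either strand of the whole window, were in 26 of 72 (36.1%), beside 34.7% for the mitochondrial ribosomal proteins and 8.86% of all windows. AAGATGGC, which may overlap it by 3 letters, was in 7 of 72 (9.72%), beside 16% and 2.75%. Stretches from 40 bases before the start to 15 bases from the start on are given for 6 genes with the run in capitals, at chr2:26910767-26910821 (+) for *Rpl7a*, chr3:130730323-130730377 (−) for *Rpl34*, chr2:39005117-39005171 (−) for *Rpl35*, chr14:18270972-18271026 (−) for *Rpl15*, chr16:33056442-33056496 (+) for *Rpl35a* and chr4:86857353-86857407 (−) for *Rps6*.
Rpl7a: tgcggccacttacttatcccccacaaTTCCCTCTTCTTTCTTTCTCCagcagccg
Rpl34: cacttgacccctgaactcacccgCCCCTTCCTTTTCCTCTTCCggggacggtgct
Rpl35: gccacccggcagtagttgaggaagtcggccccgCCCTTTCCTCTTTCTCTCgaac
Rpl15: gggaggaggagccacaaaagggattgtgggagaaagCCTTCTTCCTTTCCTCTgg
Rpl35a: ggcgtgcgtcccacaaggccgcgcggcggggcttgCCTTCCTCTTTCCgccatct
Rps6: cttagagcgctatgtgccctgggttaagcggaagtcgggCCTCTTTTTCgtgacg
The log2 fold changes of these 6 were 0.20, 0.21, 0.17, 0.19, 0.20 and 0.21 in the order printed. The 20 genes with such a run in a window had a median of 0.19 (quartiles 0.14 and 0.21), and the 37 measured genes with a window but no run had one of 0.19 (quartiles 0.15 and 0.22). Values of genes with and without the run thus overlapped almost wholly. The array measures the amount of mRNA and not its translation, on which the TOP tract acts.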

How the data were processed

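Total RNA of 2 MCM cultures was labelled with Cyanine 3 and hybridized to Agilent 8x60K mouse arrays, 1 per condition, with conditions taken from the labels. The deposited scanner files hold the intensity of each spot from Feature Extraction (version 10.7.1.1 in the submitters' processing notes), background-corrected but unscaled between arrays. The authors' deposited log2 values follow a quantile normalization; their methods name GeneSpring. Here control and outlier spots were left out (126 and 95 outliers), the log2 intensities of a probe's spots were averaged, and each array was centred on the 75th percentile of its non-control probes. A gene is the mean of its probes well above background on both arrays. The number of arrays limits the precision, and no test could be run. The members, lists and named genes were chosen with earlier results of these data known. Named genes were the 5 highest and 5 lowest members, members with known roles, paralog pairs, the member with the widest probe range and the extremes of each list; other genes were named after their values were seen. Probe coordinates are of build mm9 and promoters, from RefSeq, of GRCm38.p6. The gene and trend steps were tested on simulated data. Alternatives were other scalings, filters, probe rules and bins. Python 3.11.15, R 4.3.3 and limma 3.58.1 were used.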

Additional observations from a re-analysis of the deposited data

How the results depend on the processing

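The median log2 fold change of the ribosomal protein genes was 0.19, with 75 of 77 above 0. It moved by more than the median SD over spots (0.038) with quantile normalization (0.026), with cyclic loess (0.017) and with the authors' table (0.027), with the spike-in scaling by median signal (−0.029, 15 genes above 0) and with that by median ratio (0.0041, 41 above 0). Without a filter on dim probes 2 genes passed 1.5-fold and 1 passed 2-fold, *Rpl10l* and *Rpl39l*, and neither is well above background on either array. Under the other alternatives (the median of detected probes, normexp with an offset of 50, outlier spots kept, the probe of highest signal, probes to a RefSeq mRNA only, no probes shared with other names and no paralogs) the median lay between 0.17 and 0.21. The difference from bins of equal brightness lay between −0.0039 and 0.028 with 10 or 40 bins, with bins of other genes only, and under quantile, loess and the authors' values. The median ratio of spike-in probes, the RefSeq mRNA probes and the bins of other genes were chosen after seeing the data. Of the list medians, all 7 were above 0 as reported, 6 under quantile normalization, 5 under cyclic loess and none under either spike-in scaling. Of 561 values of named genes under an alternative, 273 moved by more than the SD over spots, and *Ppp2r5d*, the one named gene past 1.5-fold as reported, kept its sign in all. *Ddx21* (0.60) and *Pabpc1* (0.59) passed 1.5-fold with the median of detected probes, and *Mrpl42* with both spike-in scalings (−0.68 and −0.65). No paired analysis was possible because each condition has 1 array, and no array could be left out for the same reason. Whether the step between the arrays in their 75th percentile reflects RNA, labelling or hybridization was not tested. Intensities near background limit what can be said of the 4 silent paralogs.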
